A study of Mus musculus with 3 samples.

Results

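Astrocytes with abundant Gfap RNA were compared with astrocytes that held little of it, within the same libraries of aged mouse hippocampus. The cells were chosen by counts in each deposited table. A cell barcode needed at least 2000 UMIs (unique molecular identifiers, each 1 counted RNA molecule), at most 20% of them from mitochondrial genes, at least 3 of the 6 astrocyte genes Aqp4, Slc1a2, Slc1a3, Gja1, Aldoc and Ntsr2, and at most 1 of the 5 genes Cldn5, Flt1, Cx3cr1, C1qa and Ccdc153, which mark other cells. Of 14759 deposited barcodes, 1959 met these conditions. Gfap-high cells were the 197 with at least 40 Gfap UMIs per 10000, Gfap-low cells the 1026 with fewer than 10, and 736 lay between the limits. Gfap itself was the selected readout and is left out of the results.

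The series holds 3 libraries, treated as replicates 1, 2 and 3, of hippocampal cells from wild-type C57BL/6 mice labelled as 2 years old. The title of replicate 3 gives 25 months. There is no treated, mutant or young group, and both groups of cells share their mice, papain digestion and droplet run. The series text counts 6 hippocampi without saying which animal entered which library, so p-values measure the spread between 3 libraries that may each pool animals.

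Astrocytes clear glutamate and potassium from synapses, wrap blood vessels with endfeet and feed neurons. Gfap, an intermediate filament protein, marks a minority of them in the healthy cortex and more in the hippocampus. Fibrous astrocytes of white matter and astrocytes of the pial surface are rich in it. After injury, inflammation and with age many astrocytes raise Gfap together with vimentin, protease inhibitors such as Serpina3n, and complement C4b. This programme is called reactive astrogliosis, and cytokines of the interleukin-6 family acting through Stat3 are among its known inducers.

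The libraries differed in size, with 45716237, 7185668 and 40377042 UMIs over 7241, 1062 and 6456 barcodes in replicates 1, 2 and 3. Gfap-high cells numbered 65, 5 and 127, and Gfap-low cells 699, 32 and 295. The Gfap-high share of the cells chosen before the Gfap limits was 5.64% (exact 95% binomial interval 4.38 to 7.13%), 8.47% (2.81 to 18.7%) and 17.0% (14.4 to 19.9%), intervals that cover counting error only. Replicate 2 holds so few Gfap-high cells that 1 UMI moves its levels visibly. For scarce genes, statements below that the groups did not overlap rest on few UMIs in that library. The share of all genes without overlap is not given. Levels are given as CPM, the UMIs of a gene scaled to a common total per library and group. Gfap-high cells were deeper than Gfap-low cells in replicates 1 and 3 (median 7758 against 5325 and 10924 against 6084 UMIs) and shallower in replicate 2 (3264 against 5895). Libraries shared 3, 12 and 2 barcodes in pairs, and no barcode was Gfap-high in both libraries of a pair. Around the upper limit, 41 cells lay within 5 Gfap UMIs per 10000 above it and 51 within 5 below, and around the lower limit 103 lay within 2 above and 135 within 2 below.

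The label held for most Gfap-high cells but for fewer of the Gfap-low cells. Each cell was thinned at random to 2000 UMIs and scored for 9 lists of markers of other cell classes and for 18 astrocyte genes that had not chosen the cells. Of the Gfap-low cells, 393 (38.3%) carried 3 or more markers of at least 1 other class, against 34 (17.3%) of the Gfap-high cells. Among Gfap-low cells 135 carried oligodendrocyte precursor markers, 132 ependymal, 82 microglial and 44 mural or fibroblast markers. Among Gfap-high cells 17 carried ependymal and 13 microglial markers, and none precursor markers. In Gfap-low cells with other markers, a median of 4 of the 18 astrocyte genes was detected, against 11 over all Gfap-low cells.

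**Figure D1:**
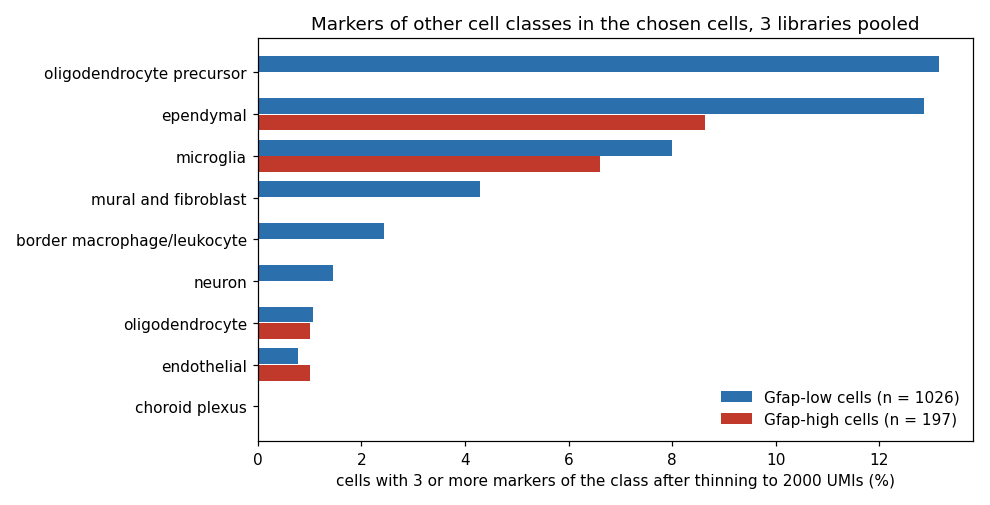
Bars show the share of Gfap-low (blue, 1026 cells) and Gfap-high cells (red, 197 cells) with 3 or more detected markers of a class after thinning to 2000 UMIs, over 3 libraries. Oligodendrocyte precursor markers appeared in 13.2% of Gfap-low cells and in no Gfap-high cell, and ependymal markers in 12.9% and 8.63%.

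Every comparison is therefore given for all chosen cells and again for screened cells, a restriction added after the data were seen. Screened cells had fewer than 3 markers of each of the 9 other classes and at least 6 of the 18 astrocyte genes. Fewer than 6 of these astrocyte genes were detected in 294 of 1026 Gfap-low cells and in 9 of 197 Gfap-high cells. They numbered 52, 4 and 106 Gfap-high (162 of 197) and 470, 18 and 124 Gfap-low cells (612 of 1026). Erythrocyte markers were not read by the screen. Their summed list stood at 720, 931 and 10096 CPM in screened Gfap-low cells of replicates 1, 2 and 3. In screened Gfap-high cells it stood at 98.8, 658 and 246 CPM. With the screen, the summed oligodendrocyte precursor list of 12 markers went from 1452 to 3159 CPM over the libraries' Gfap-low cells to 110.1 to 153 CPM, and stood at 82.3 to 207 CPM in Gfap-high cells. In screened cells the ependymal list of 12 markers was higher in Gfap-high cells of every library, at 126, 123 and 234 CPM against 80.1, 57.7 and 136 CPM, with 2 to 9 markers at 0 per library in Gfap-high cells. The oligodendrocyte list of 12 stood at 319, 123 and 243 CPM in Gfap-high and 169.6, 180.4 and 137 CPM in Gfap-low cells, higher in replicates 1 and 3, with 1 to 11 markers at 0 in Gfap-high cells. Their part in the results was not tested. The microglial list of 12 markers stood at 239 to 339 CPM in screened Gfap-low and 123 to 243 CPM in screened Gfap-high cells. The summed 18 astrocyte genes stood at 16446 to 18352 CPM in screened Gfap-high and 19638 to 21272 CPM in screened Gfap-low cells. Genes read by the screen, these markers included, are left out of the list counts for screened cells.

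UMIs were summed per library and group and tested over all detected genes with edgeR's quasi-likelihood test and the library as a block. A gene was called at a Benjamini-Hochberg adjusted p below 0.05. In all chosen cells 219 of 9481 genes were higher in Gfap-high cells (2.31%) and 602 lower (6.35%). In screened cells 329 of 7174 were higher (4.59%) and 380 lower (5.3%). These shares over all genes belong beside every count of list members below. The calls overlapped in part: 103 genes were higher in both, which is 47.0% of the first list and 31.3% of the second. Lower in both were 50 genes, 8.31% of the first list and 13.2% of the second, and 455 of the 602 lower genes were too scarce to be tested in screened cells. The changes are given as log2 of Gfap-high over Gfap-low, and paired values give all chosen cells first and screened cells second. The adjusted p-values borrow their spread from all genes and rest on 3 libraries, so their size is no measure of certainty about other mice. No gene was called higher in all chosen cells and lower in screened cells, while 12 went the opposite way.

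The calls depended on the libraries taken. Without replicate 2, 756 of 9067 genes were higher (8.34%) and 612 lower (6.75%) in screened cells, and all 103 and 50 genes called both ways kept their calls there. In all chosen cells, leaving out replicate 2 gave fewer calls, 181 higher and 404 lower of 11489 tested, and 92 of the 103 and 21 of the 50 genes were still called. Without replicate 1 the screened calls fell to 38 higher and 27 lower, and without replicate 3 to 19 and 4. In all chosen cells they fell to 46 and 467 without replicate 1 and to 25 and 108 without replicate 3. Of the 103, A2m, Cebpd, Fxyd7, Sbno2, Serpina3n, Serpinf1, Thbs4 and 6330403K07Rik were called in screened cells whichever library was left out, and of the 50, Gria2, Hes5, Igfbp2 and Slco1c1.

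**Figure D2:**
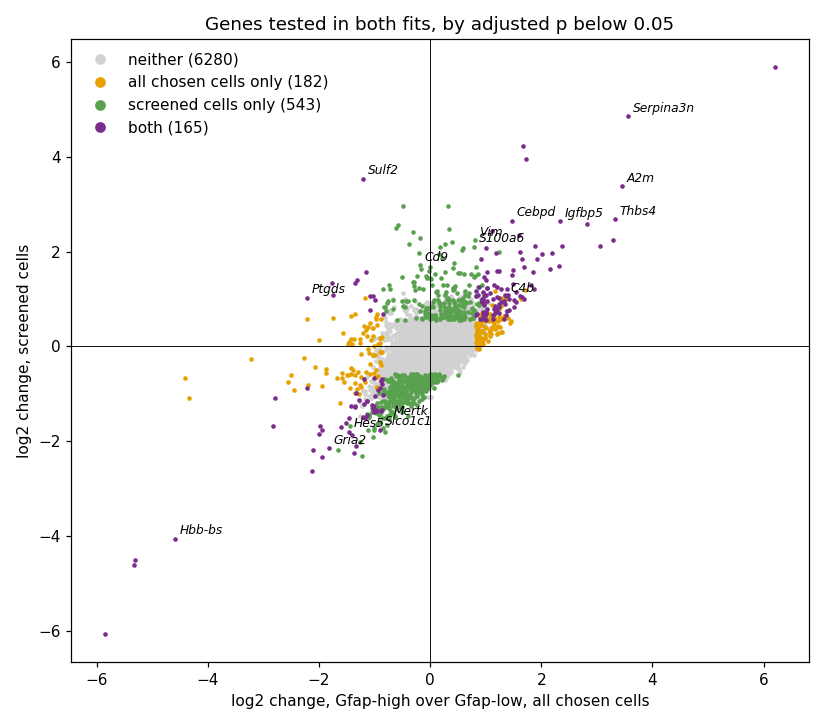
Each point is 1 of 7170 genes tested in both comparisons, placed by its log2 change in all chosen cells (x axis) and in screened cells (y axis). Purple genes were called in both (165), orange in all chosen cells only (182) and green in screened cells only (543); Serpina3n and Thbs4 lie at the upper right, Gria2 and Hes5 at the lower left, and Sulf2 and Ptgds changed sides.

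Several genes of secreted protease inhibitors were higher in Gfap-high cells, Serpina3n and A2m among those with the larger changes. Serpina3n (ENSMUSG00000021091.8, chr12:104406729-104414329, plus strand, GENCODE coordinates on mm10) encodes a serine protease inhibitor that is a standard marker of reactive astrocytes. In screened cells it stood at 388, 82.3 and 468 CPM in Gfap-high cells and 6.95, 21.6 and 26.2 CPM in Gfap-low cells of replicates 1, 2 and 3. Every Gfap-high value exceeded every Gfap-low value, with 2 Gfap-high and 3 Gfap-low UMIs in replicate 2. Its log2 change was 4.86 ± 0.26 (adjusted p = 5.3e-73), and 3.56 ± 0.33 (adjusted p = 3.1e-24) in all chosen cells. Values after ± here and below are SEs derived from the test statistic, whose spread is borrowed in part from all genes. They are not SEs over the ratios of the 3 libraries, which differed more. A2m, alpha-2-macroglobulin, a broad protease trap, stood at 96.6, 41.1 and 111 CPM in Gfap-high cells and 4.75, 7.22 and 18.5 CPM in Gfap-low cells, again without overlap. Its log2 change was 3.46 in all chosen cells and 3.38 in screened cells (adjusted p = 5.2e-22 and 5.4e-22). In replicate 2 the screened A2m values of both groups were 1 UMI each.

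Serpinf2, which encodes the plasmin inhibitor alpha-2-antiplasmin, was nearly absent from Gfap-low cells: 49 UMIs in Gfap-high cells against 2 in the 1026 Gfap-low cells. The pooled ratio per UMI was 83.5 (95% counting interval 21.9 to 709), and 76.3 (12.8 to 3096) in screened cells from 36 against 1 UMI. Screened cells between the limits held 6, 1 and 11 Serpinf2 UMIs in replicates 1, 2 and 3. Of 52, 4 and 106 screened Gfap-high cells, 9, 1 and 15 held any. Serpinf1 (pigment epithelium-derived factor), gave 94.3, 41.1 and 52.3 CPM in Gfap-high cells and 2.56, 0 and 7.63 CPM in Gfap-low cells after screening. In all chosen cells the Gfap-low cells of replicate 2 had 189 CPM, above every Gfap-high value, and the log2 change was 1.68 instead of 4.23 (adjusted p = 2.2e-06 and 1.3e-20).

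Complement C4b stood at 1149.6, 782 and 1215 CPM in Gfap-high cells and 443, 613 and 525 CPM in Gfap-low cells, and the groups did not overlap. Its log2 change was 1.37 in all chosen cells and 1.05 in screened cells (adjusted p = 7.8e-05 and 1.2e-05). Serping1, the C1 inhibitor, was at 20.2, 0 and 103 CPM in Gfap-high cells and 0.366, 0 and 26.2 CPM in Gfap-low cells, so its call rested on replicates 1 and 3 (log2 change 1.12 and 2.43, adjusted p = 0.0033 and 4.2e-08). Of the complement list, 4 of 7 genes tested were higher and 2 of 7 lower in all chosen cells, and 2 of 3 were higher and none lower in screened cells. The shares over all genes were 2.31% higher and 6.35% lower, and 4.59% and 5.3% after screening. Without replicate 1, C4b and Serping1 were no longer called in screened cells (log2 change 0.75 to 1.99, adjusted p = 0.059 to 0.52). Without replicate 3, C4b was no longer called in screened cells (log2 change 0.91, adjusted p = 0.26), and Serping1 fell below the expression filter.

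Osmr and Il6st, receptor subunits for cytokines of the interleukin-6 family, were called higher in both sets, while the wider signalling list had few calls. Of the JAK-STAT and NF-kB list, no gene of 16 was called in all chosen cells, and 3 of 12 tested were higher and 1 lower in screened cells, with medians of -0.18 and -0.02. Over all genes in screened cells, 4.59% were higher and 5.3% lower. Osmr, the oncostatin M receptor subunit, stood at 49.4, 82.3 and 94 CPM in Gfap-high cells and 32.2, 21.6 and 37.1 CPM in Gfap-low cells (log2 change 1.65 and 1.05, adjusted p = 8.5e-06 and 0.0037). Il6st, the shared signalling subunit gp130, stood at 112, 41.1 and 81.9 CPM in Gfap-high cells and 41.3, 36.1 and 42.5 CPM in Gfap-low cells (log2 change 0.83 and 1.17, adjusted p = 0.038 and 0.0002). The transducer Stat3 was at 195, 123 and 141 CPM in Gfap-high cells and 89.6, 72.2 and 84 CPM in Gfap-low cells, with no overlap. Its log2 change was 0.61 in all chosen cells and 0.92 in screened cells (adjusted p = 0.23 and 0.00037), a call only after screening. Sbno2, a nuclear co-regulator induced by interleukin-10 and interleukin-6 signals, gave 67.4, 329 and 84.9 CPM in Gfap-high cells and 16.8, 21.6 and 14.2 CPM in Gfap-low cells (log2 change 1.6 and 2.35, adjusted p = 1.3e-06 and 2e-12). Without replicate 1, Osmr, Il6st and Stat3 were no longer called in screened cells (log2 change 0.70 to 1.37, adjusted p = 0.32 to 0.7). Without replicate 3, Osmr, Il6st and Stat3 were no longer called in screened cells (log2 change 0.64 to 1.30, adjusted p = 0.2 to 0.48).

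The transcription factor Cebpd, an acute-phase regulator, was at 494, 329 and 332 CPM in Gfap-high cells and 55.9, 43.3 and 77.4 CPM in Gfap-low cells, without overlap, and its log2 change was 1.47 in all chosen cells and 2.65 in screened cells (adjusted p = 2.2e-05 and 1.1e-32). Cebpb gave 309.9, 41.1 and 85.7 CPM in Gfap-high cells and 31.8, 36.1 and 39.3 CPM in Gfap-low cells (log2 change -0.31 and 2.41, adjusted p = 0.69 and 8.6e-23). The feedback inhibitor Socs3 was at 162, 0 and 22 CPM in Gfap-high cells and 9.14, 0 and 26.2 CPM in Gfap-low cells: its screened log2 change of 2.51 (adjusted p = 3.2e-11) came from replicate 1, and without that library it was -0.23 (adjusted p = 0.96). Without replicate 1, Cebpb was no longer called in screened cells (log2 change 1.02, adjusted p = 0.6).

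Single genes of secreted matrix and growth factor proteins were called, while the matrix list went both ways. The list of extracellular matrix genes, proteases and inhibitors counted 4 higher and 6 lower of 23 tested (median log2 change -0.26) in all chosen cells and 5 higher and 3 lower of 17 (median 0.09) in screened cells. Among all genes the shares were 2.31% higher and 6.35% lower, and 4.59% and 5.3% after screening. Thbs4, thrombospondin 4, stood at 269, 165 and 336 CPM in Gfap-high cells and 47.2, 64.9 and 37.1 CPM in Gfap-low cells, with every Gfap-high value above every Gfap-low value (log2 change 3.32 and 2.68, adjusted p = 1.4e-22 and 6.7e-32). Igfbp5, an insulin-like growth factor binding protein, stood at 1206, 123 and 1042 CPM in Gfap-high cells and 170.0, 115 and 145 CPM in Gfap-low cells. The 4 Gfap-high cells of replicate 2 were close to the Gfap-low level, and the other libraries were above it (log2 change 2.34 and 2.64, adjusted p = 4.4e-11 and 5.5e-30). Sparc, a matricellular protein, was at 1141, 2016 and 1533 CPM in Gfap-high cells and 606, 772 and 680.5 CPM in Gfap-low cells (log2 change 1.24 and 1.02, adjusted p = 0.00031 and 2e-05). Fgf2, basic fibroblast growth factor, reached 26.9, 41.1 and 24.3 CPM in Gfap-high cells and 14.6, 7.22 and 6.54 CPM in Gfap-low cells (log2 change 1.82 and 1.29, adjusted p = 0.0015 and 0.034). Igfbp2 went the other way: 11.2, 0 and 116 CPM in Gfap-high cells and 269.8, 79.4 and 336 CPM in Gfap-low cells, with the Gfap-high value of replicate 3 above the Gfap-low value of replicate 2 (log2 change -2.12 and -2.20, adjusted p = 2.5e-08 and 4.7e-19). Without replicate 1, Sparc and Fgf2 were no longer called in screened cells (log2 change 1.10 to 1.89, adjusted p = 0.092 to 0.098). Without replicate 3, Igfbp5 and Sparc were no longer called in screened cells (log2 change 0.97 to 2.32, adjusted p = 0.065 to 0.13), and Fgf2 fell below the expression filter.

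Several inflammatory genes were concentrated in few cells or in replicate 3. Lcn2 (lipocalin 2, an iron-siderophore binder) was at 6.74, 0 and 1250.0 CPM in Gfap-high cells and 19, 0 and 226 CPM in Gfap-low cells (log2 change 1.65 and 1.85, adjusted p = 0.0013 and 1.5e-09). In replicate 3, 29 of 106 screened Gfap-high cells held its UMIs, and 5 cells held 69% of them; in the Gfap-low cells 1 cell held 82.6%. The chemokine Cxcl5 was at 74.1, 0 and 489.7 CPM in Gfap-high cells and 23.8, 0 and 82.9 CPM in Gfap-low cells, found in 56 of 106 Gfap-high cells of replicate 3 (log2 change 3.29 and 2.25, adjusted p = 6.3e-19 and 1.4e-18). In that library 5 Gfap-high cells held 51.9% of the Gfap-high Cxcl5 UMIs, and 1 Gfap-low cell 82.9% of the Gfap-low ones. Chil1, a chitinase-like protein of reactive astrocytes, was at 164, 123 and 575 CPM in Gfap-high cells and 73.5, 50.5 and 138 CPM in Gfap-low cells (log2 change 2.16 and 1.63, adjusted p = 1.5e-09 and 5.8e-12), with 76 of 106 Gfap-high cells of replicate 3 positive. Of the Chil1 UMIs of replicate 3, 5 Gfap-high cells held 52.9% of their group's, and 1 Gfap-low cell 35.4% of its group's. Without replicate 3, Chil1 was no longer called in screened cells (log2 change 1.10, adjusted p = 0.2), and Lcn2 and Cxcl5 fell below the expression filter. Myoc, myocilin, was seen at 1114, 0 and 366 CPM in Gfap-high cells and was listed at 4.75, 0 and 1.09 CPM in Gfap-low cells. In replicate 1 a single cell held 70.0% of its Gfap-high UMIs and in replicate 3 5 cells held 93.2%, and the gene did not pass the expression filter of the test.

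Fxyd7 and Fxyd1 encode small regulators of the sodium-potassium pump. Fxyd7 was at 135, 123 and 92.5 CPM in Gfap-high cells and 24.9, 43.3 and 8.72 CPM in Gfap-low cells (log2 change 2.83 and 2.59, adjusted p = 6.1e-17 and 4.8e-18). Fxyd1 was at 1349, 1358 and 1564 CPM in Gfap-high cells and 584, 649 and 603 CPM in Gfap-low cells (log2 change 1.55 and 1.15, adjusted p = 3.6e-06 and 1.1e-06). Neither overlapped between the groups. Kcne1l, a potassium channel subunit, changed by 2.32 in all chosen cells and 1.69 in screened cells (adjusted p = 2.1e-09 and 3.4e-06). Ass1, the argininosuccinate synthase of the urea cycle, was at 195, 82.3 and 146 CPM in Gfap-high cells and 38, 36.1 and 48 CPM in Gfap-low cells (log2 change 2.19 and 1.98, adjusted p = 7.6e-12 and 2.1e-16). Aspg, an asparaginase used as a pan-reactive marker, was at 85.3, 123 and 91 CPM in Gfap-high cells and 25.6, 36.1 and 12 CPM in Gfap-low cells (log2 change 3.06 and 2.11, adjusted p = 1.9e-17 and 4.9e-11). Rida, an imine deaminase, changed by 1.87 in all chosen cells and 1.20 in screened cells (adjusted p = 5.8e-09 and 1.4e-07). Gfpt2, the entry enzyme of the hexosamine pathway, changed by 1.95 (adjusted p = 0.0041) in all chosen cells and was too scarce to test after screening. The homeobox gene Prrx2 changed by 2.37 in all chosen cells and 2.11 in screened cells (adjusted p = 4.2e-05 and 0.00077). Without replicate 1, Fxyd1, Ass1 and Prrx2 were no longer called in screened cells (log2 change 1.09 to 1.52, adjusted p = 0.096 to 0.28). Without replicate 3, Fxyd1, Kcne1l, Aspg and Rida were no longer called in screened cells (log2 change 1.03 to 1.66, adjusted p = 0.11 to 0.12), and Prrx2 fell below the expression filter.

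Id3 and Id1, inhibitors of basic helix-loop-helix factors, were called higher in both sets, with replicate 2 the other way for both. Id3 stood at 891, 82.3 and 443 CPM in Gfap-high cells and 356, 173 and 248 CPM in Gfap-low cells (log2 change 1.33 and 0.96, adjusted p = 0.00016 and 0.00013). Id1 was at 207, 0 and 55.3 CPM in Gfap-high cells and 70.2, 14.4 and 36 CPM in Gfap-low cells (log2 change 1.27 and 1.21, adjusted p = 0.00041 and 2e-05). Their relative Id4 was at 968, 699.5 and 757 CPM in Gfap-high cells and 676, 959.8 and 711 CPM in Gfap-low cells and was not called (log2 change 0.68 and 0.10, adjusted p = 0.13 and 0.83). The list of Notch and Tgf-beta signalling genes counted 4 higher and 2 lower of 21 tested (median log2 change -0.24) in all chosen cells and 2 higher and 1 lower of 15 (median 0.04) in screened cells. Beside it, 2.31% of all genes were higher and 6.35% lower, and 4.59% and 5.3% after screening. Without replicate 1, Id3 and Id1 were no longer called in screened cells (log2 change 0.48 to 0.58, adjusted p = 0.82 to 0.87). Without replicate 3, Id3 and Id1 were no longer called in screened cells (log2 change 0.92 to 1.45, adjusted p = 0.15 to 0.35).

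**Figure D3:**
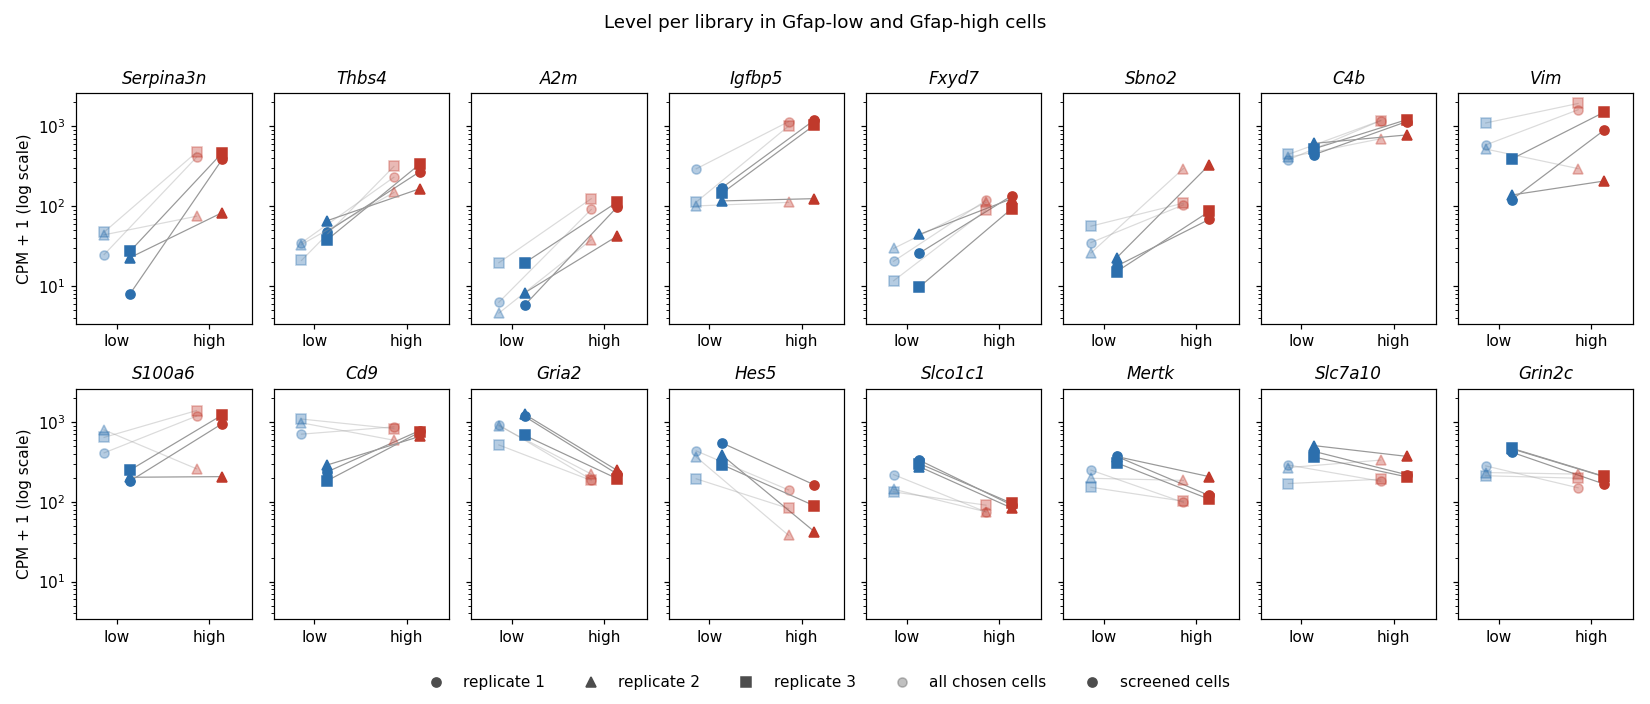
Each panel shows 1 gene, with CPM + 1 on a log scale for the Gfap-low (blue) and Gfap-high cells (red) of replicates 1 (circles), 2 (triangles) and 3 (squares). Pale symbols are all chosen cells and solid symbols screened cells; lines join the groups of 1 library. In screened cells Serpina3n, Thbs4 and A2m lie higher in Gfap-high cells of every library and Gria2, Hes5 and Slco1c1 lower, while Vim, S100a6 and Cd9 were called in screened cells alone.

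Vim, S100a6 and Cd9 were called higher once cells with markers of other classes were out. Vim, which encodes the filament partner of Gfap (chr2:13573927-13582826, plus strand, mm10), was at 1619, 295 and 1942 CPM in Gfap-high cells and 585, 521 and 1105 CPM in Gfap-low cells over all chosen cells and was not called (log2 change 0.80, adjusted p = 0.073). After screening it was at 894, 206 and 1506 CPM in Gfap-high cells and 119, 137 and 389 CPM in Gfap-low cells, and its log2 change was 2.24 ± 0.22 (adjusted p = 4.7e-22). The Gfap-high value of replicate 2 lay near the Gfap-low values, below that of replicate 3, and the other libraries separated. S100a6, calcyclin, was at 957, 206 and 1229 CPM in Gfap-high cells and 181, 202 and 249 CPM in Gfap-low cells (log2 change 0.80 and 2.11, adjusted p = 0.078 and 1.9e-20). Cd9, a tetraspanin, was at 781, 658 and 746 CPM in Gfap-high cells and 237, 289 and 183 CPM in Gfap-low cells, without overlap (log2 change -0.18 and 1.71, adjusted p = 0.84 and 7.4e-15). Vim, S100a6 and Cd9 lost their screened calls without replicate 3 (adjusted p = 0.06, 0.13 and 0.065), with log2 changes of 2.37, 1.82 and 1.45.

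As lists, the S100 and small calcium-binding proteins counted 3 higher and 2 lower of 15 tested in all chosen cells, and 9 higher and none lower of 11 in screened cells, with a median log2 change of 0.78. S100a4 (log2 change 1.93 and 1.84, adjusted p = 2.1e-08 and 1.5e-07), S100a10 (log2 change 1.24 and 1.59, adjusted p = 0.00069 and 1.7e-12) and S100a13 (log2 change 1.01 and 0.72, adjusted p = 0.0057 and 0.005) were called in both sets. S100a1 was called after screening (log2 change 0.78 and 0.78, adjusted p = 0.051 and 0.0021). S100b, one of the genes the screen read, was at 905, 1481 and 1123 CPM in Gfap-high cells and 791, 433 and 719 CPM in Gfap-low cells in screened cells and was not called in all chosen cells (log2 change 0.76, adjusted p = 0.063). Actin and cell shape regulators counted 1 higher and 6 lower of 24 in all chosen cells, and 10 higher and none lower of 22 after screening. Gsn, gelsolin, was called in both (log2 change 1.0 and 2.07, adjusted p = 0.011 and 1.8e-20), and Tuba1a (log2 change -0.08 and 1.48, adjusted p = 0.94 and 5.3e-11) and Tmsb4x (log2 change -0.82 and 0.84, adjusted p = 0.053 and 0.00097) after screening. Lgals1, galectin 1, was called in both (log2 change 0.97 and 1.46, adjusted p = 0.0092 and 4.9e-11). Without replicate 1, S100a4, S100a10, S100a13, S100a1 and Tmsb4x were no longer called in screened cells (log2 change 0.63 to 1.51, adjusted p = 0.081 to 0.64). Without replicate 3, S100a4, S100a10, S100a13, S100a1, Gsn, Tuba1a, Tmsb4x and Lgals1 were no longer called in screened cells (log2 change 0.74 to 1.90, adjusted p = 0.063 to 0.26). Over all genes tested the medians were -0.07 and -0.02, with 2.31% higher and 6.35% lower, and 4.59% and 5.3% after screening.

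The other intermediate filament genes were scarce. Nestin, Nes, was at 22, 73.8 and 20.5 CPM in Gfap-high cells and 25.8, 28.5 and 85.3 CPM in Gfap-low cells over all chosen cells and lower in Gfap-high cells (log2 change -1.11, adjusted p = 0.034). After screening it was at 0, 82.3 and 6.82 CPM in Gfap-high cells and 1.46, 0 and 2.18 CPM in Gfap-low cells and was not tested. Synm, synemin, had a log2 change of -0.76 (adjusted p = 0.2) in all chosen cells and was not tested after screening. Cd44, the hyaluronan receptor of fibrous astrocytes, was at 71.7, 0 and 57.5 CPM in Gfap-high cells and 8.22, 3.57 and 25.2 CPM in Gfap-low cells in all chosen cells (log2 change 2.18, adjusted p = 3.5e-08). In screened cells it was at 60.6, 0 and 50.8 CPM in Gfap-high cells and 1.83, 0 and 6.54 CPM in Gfap-low cells, too scarce to test. The list of fibrous and pial astrocyte genes, which holds it, counted 6 higher and 2 lower of 15 tested (median log2 change 0.80) in all chosen cells and 8 higher and 1 lower of 12 (median 1.12) in screened cells. Of all genes tested, 2.31% were higher and 6.35% lower, and 4.59% and 5.3% after screening.

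Most lists of reactive astrocyte genes gave high counts beside the 2.31% and 4.59% of all tested genes that were higher. These lists were put together with earlier results of these data known, so their counts describe and do not support. Disease-associated astrocyte genes counted 14 higher and 0 lower of 18 tested (median log2 change 1.26) in all chosen cells and 13 higher and 0 lower of 17 (median 1.02) in screened cells. Pan-reactive genes counted 6 higher and 1 lower of 10 tested (median log2 change 1.46) in all chosen cells and 6 higher and 0 lower of 7 (median 1.85) in screened cells, and genes of the neuroinflammation type 4 higher and 0 lower of 9 tested (median log2 change 0.73) in all chosen cells and 6 higher and 0 lower of 6 (median 1.5) in screened cells. Genes of the injury type counted 1 higher and 1 lower of 5 tested (median log2 change 0.10) in all chosen cells and 2 higher and 0 lower of 3 (median 1.59) in screened cells. By level in replicates 1, 2 and 3, called or not, 6, 3 and 9 of 10 pan-reactive genes stood higher in all chosen cells. Of 9 neuroinflammation-type genes 7, 0 and 6 did, and of 18 disease-associated genes 18, 14 and 17. In screened cells the counts were 5, 4 and 6 of 7, 6, 2 and 6 of 6, and 17, 13 and 16 of 17. Over all genes they were 3946, 3415 and 3083 of 9481, and 3588, 3048 and 3423 of 7174 after screening. Among the neuroinflammation type, Gbp2, an interferon-induced GTPase, changed by 1.18 in all chosen cells and 1.97 in screened cells (adjusted p = 0.0083 and 0.00039). Ggta1, a galactosyltransferase, changed by 2.68 (adjusted p = 2.4e-11) in all chosen cells and was too scarce to test after screening. Ptgds, prostaglandin D synthase of meningeal cells and oligodendrocytes, changed sides: it was at 36.7, 0 and 74.6 CPM in Gfap-high cells and 535, 3.57 and 181 CPM in Gfap-low cells over all chosen cells and 40.4, 0 and 79.6 CPM in Gfap-high cells and 23, 0 and 36 CPM in Gfap-low cells after screening (log2 change -2.21 and 1.02, adjusted p = 2e-08 and 0.011).

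Some genes of antigen presentation and interferon response were called after screening. For comparison with both lists, 2.31% of all genes were higher and 6.35% lower, and 4.59% and 5.3% after screening. The MHC class I list counted 0 higher and 0 lower of 19 tested (median log2 change 0.17) in all chosen cells and 5 higher and 0 lower of 13 (median 0.74) in screened cells. H2-D1 was at 204, 247 and 262 CPM in Gfap-high cells and 79, 123 and 117 CPM in Gfap-low cells, without overlap (log2 change -0.12 and 1.22, adjusted p = 0.9 and 2e-07). H2-K1 (log2 change 0.27 and 0.74, adjusted p = 0.71 and 0.0041), B2m, the invariant light chain (log2 change 0.34 and 0.78, adjusted p = 0.6 and 0.0021), and Psmb8, an immunoproteasome subunit (log2 change 0.73 and 1.52, adjusted p = 0.11 and 2.4e-05), were called after screening as well. The interferon list counted 1 higher and 1 lower of 27 tested (median log2 change 0.18) in all chosen cells and 8 higher and 1 lower of 19 (median 0.57) in screened cells, led by Ifitm3 at 256, 41.1 and 839.9 CPM in Gfap-high cells and 45, 57.7 and 221 CPM in Gfap-low cells (log2 change 0.18 and 2.09, adjusted p = 0.85 and 2.4e-19). Without replicate 1, H2-D1, H2-K1, B2m and Psmb8 were no longer called in screened cells (log2 change 0.75 to 1.10, adjusted p = 0.28 to 0.55). Without replicate 3, H2-D1, H2-K1, B2m, Psmb8 and Ifitm3 were no longer called in screened cells (log2 change 0.89 to 2.18, adjusted p = 0.067 to 0.33).

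Immediate early genes, which respond within minutes and also to tissue dissociation, differed between libraries. The list counted 0 higher and 5 lower of 28 tested (median log2 change -0.70) in all chosen cells and 13 higher and 1 lower of 25 (median 0.70) in screened cells. The shares of all genes were 2.31% higher and 6.35% lower, and 4.59% and 5.3% after screening. In screened cells 23 of 25 tested members were higher in the Gfap-high cells of replicate 1, 10 in replicate 2 and 7 in replicate 3. Junb showed the contrast: 1302, 411 and 221 CPM in Gfap-high cells and 131, 93.8 and 277 CPM in Gfap-low cells. Few cells carried much of it: in replicate 1, 1 of 52 screened Gfap-high cells held 37.6% of 580 Junb UMIs. The top 5 cells there held 72.9%, against 20.1% for the top 5 of 470 Gfap-low cells. The Gfap-high value of replicate 2 was 10 UMIs in 4 cells. In replicate 1 the Gfap-high value was above the Gfap-low value and in replicate 3 below it. Its screened log2 change of 1.58 (adjusted p = 6.6e-10) was 0.16 (adjusted p = 0.97) without replicate 1. Without replicate 1, the log2 changes of Fosb, Nr4a1 and Atf3 were -0.80, -0.51 and -0.18 instead of 1.34, 1.30 and 1.57. The stress-induced chaperone genes Hspa1a and Hspa1b were lower in Gfap-high cells in both sets (log2 change -2.22 and -0.89, adjusted p = 5.3e-10 and 0.0059 for Hspa1a, and log2 change -2.79 and -1.09, adjusted p = 3e-14 and 0.013 for Hspa1b). The part of dissociation in other results was not tested.

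Gria2, Hes5, Slco1c1 and Etv4 were lower in Gfap-high cells in both sets. The list of astrocyte transcription factors counted 2 higher and 2 lower of 25 tested (median log2 change 0.25) in all chosen cells and 3 higher and 1 lower of 23 (median -0.16) in screened cells. All genes tested gave 2.31% higher and 6.35% lower, and 4.59% and 5.3% after screening. Gria2 (ENSMUSG00000033981.14, chr3:80681450-80802835, minus strand, mm10) encodes the AMPA receptor subunit that keeps calcium out. It stood at 222, 247 and 194 CPM in Gfap-high cells and 1173, 1248 and 678 CPM in Gfap-low cells, and every Gfap-high value was below every Gfap-low value. Its log2 change was -2.15 ± 0.21 (SE from the test statistic, adjusted p = 2.8e-21), and -1.83 ± 0.30 (adjusted p = 7e-08) in all chosen cells. Hes5, a Notch target, stood at 162, 41.1 and 87.9 CPM in Gfap-high cells and 545, 382 and 291 CPM in Gfap-low cells, without overlap (log2 change -1.45 and -1.80, adjusted p = 5.4e-05 and 1.2e-14). Its Gfap-high value in replicate 2 was 1 UMI. Slco1c1, a thyroid hormone transporter, stood at 89.8, 82.3 and 94.8 CPM in Gfap-high cells and 331, 274 and 299.9 CPM in Gfap-low cells, without overlap (log2 change -0.89 and -1.76, adjusted p = 0.038 and 1.1e-13). Etv4, a transcription factor induced by fibroblast growth factor signals, changed by -1.41 in all chosen cells and -1.87 in screened cells (adjusted p = 0.0017 and 3.1e-07). Without replicate 1, Etv4 was no longer called in screened cells (log2 change -1.83, adjusted p = 0.08). Without replicate 3, Etv4 was no longer called in screened cells (log2 change -1.95, adjusted p = 0.15).

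Kirrel2, an immunoglobulin-family adhesion protein, changed by -1.37 in all chosen cells and -2.25 in screened cells (adjusted p = 0.033 and 4.3e-07). Kalrn, a guanine nucleotide exchange factor, changed by -1.33 in all chosen cells and -2.09 in screened cells (adjusted p = 0.031 and 2.2e-06). Fry, a microtubule-associated scaffold, changed by -1.99 in all chosen cells and -1.85 in screened cells (adjusted p = 1.5e-06 and 3.6e-06). The 3 genes were at 0 in the 5 Gfap-high cells of replicate 2, and below the Gfap-low level in replicates 1 and 3. Malat1, a nuclear long noncoding RNA and the most abundant gene named here, was at 40324, 33329 and 35462 CPM in Gfap-high cells and 97213, 92428 and 79062 CPM in Gfap-low cells, without overlap (log2 change -1.13 and -1.45, adjusted p = 0.013 and 1e-05). Without replicate 1, Fry and Malat1 were no longer called in screened cells (log2 change -1.83 to -1.51, adjusted p = 0.077 to 0.56). Without replicate 3, Kirrel2, Kalrn, Fry and Malat1 were no longer called in screened cells (log2 change -2.75 to -1.52, adjusted p = 0.087 to 0.17).

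Several receptor and transporter genes were lower after screening and not called before it. The screen asked for astrocyte genes and took out mostly Gfap-low cells, which can raise other astrocyte genes in the Gfap-low group. Its part in these and other calls seen only after screening was not tested. Mertk, a phagocytic receptor for synaptic debris, was at 119, 206 and 107 CPM in Gfap-high cells and 369, 368 and 306 CPM in Gfap-low cells, without overlap (log2 change -0.75 and -1.54, adjusted p = 0.1 and 5.3e-11). Grin2c, an NMDA receptor subunit of astrocytes, was at 166, 206 and 208 CPM in Gfap-high cells and 418, 462 and 469 CPM in Gfap-low cells, without overlap (log2 change -0.35 and -1.27, adjusted p = 0.61 and 9.8e-08). The GABA transporter Slc6a11 (log2 change 0.22 and -0.72, adjusted p = 0.78 and 0.0064) and the amino acid transporter Slc7a10 (log2 change -0.08 and -0.89, adjusted p = 0.94 and 0.00038) followed. The metabotropic receptor Grm3 (log2 change 0.08 and -0.75, adjusted p = 0.94 and 0.012) and the GABA receptor subunit Gabrg1 (log2 change -0.03 and -0.87, adjusted p = 0.98 and 0.0018) were lower too. Among all genes 2.31% were higher and 6.35% lower, and 4.59% and 5.3% after screening. Of the glutamate and GABA list, the count was 2 higher and 2 lower of 22 tested (median log2 change 0.15) in all chosen cells and 2 higher and 8 lower of 20 (median -0.42) in screened cells. One exception was the glutamine transporter Slc38a1, at 166, 0 and 115 CPM in Gfap-high cells and 9.5, 0 and 33.8 CPM in Gfap-low cells (log2 change 0.32 and 2.95, adjusted p = 0.68 and 2e-23). Without replicate 1, Grin2c, Slc6a11, Slc7a10, Grm3 and Gabrg1 were no longer called in screened cells (log2 change -1.25 to -0.53, adjusted p = 0.057 to 0.84). Without replicate 3, Mertk, Grin2c, Slc6a11, Slc7a10, Grm3 and Gabrg1 were no longer called in screened cells (log2 change -1.57 to -0.61, adjusted p = 0.067 to 0.43). Without replicate 1, Slc38a1 was no longer called in screened cells (log2 change 1.78, adjusted p = 0.094). Without replicate 3, Slc38a1 fell below the expression filter in screened cells.

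Adhesion molecules of perisynaptic processes counted 1 higher and 1 lower of 24 tested (median log2 change -0.16) in all chosen cells and 0 higher and 5 lower of 21 (median -0.38) in screened cells. Across all genes, 2.31% were higher and 6.35% lower, and 4.59% and 5.3% after screening. Among them, the adhesion molecule Ncam1 was at 191, 288 and 219 CPM in Gfap-high cells and 365, 419 and 366 CPM in Gfap-low cells, without overlap (log2 change -0.60 and -0.84, adjusted p = 0.22 and 0.00097). The glypican Gpc5 (log2 change -0.06 and -0.79, adjusted p = 0.95 and 0.0025) was called after screening too. Growth factor genes that were lower after screening included Ptn, pleiotrophin (log2 change -0.73 and -0.88, adjusted p = 0.11 and 0.0011), and Vegfa (log2 change -0.54 and -1.16, adjusted p = 0.31 and 1.5e-06). S1pr1, a sphingosine 1-phosphate receptor (log2 change 0.00 and -0.82, adjusted p = 1 and 0.0012), and Agt, angiotensinogen (log2 change 0.13 and -0.74, adjusted p = 0.9 and 0.0059), were lower after screening as well. Without replicate 1, Ncam1, Gpc5, Ptn, Vegfa, S1pr1 and Agt were no longer called in screened cells (log2 change -1.31 to -0.54, adjusted p = 0.09 to 0.75). Without replicate 3, Ncam1, Gpc5, Ptn, Vegfa, S1pr1 and Agt were no longer called in screened cells (log2 change -0.95 to -0.54, adjusted p = 0.17 to 0.62).

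General astrocyte genes depended on which Gfap-low cells were taken. Over all chosen cells Glul, glutamine synthetase (log2 change 1.05 and 0.12, adjusted p = 0.005 and 0.8), Clu, clusterin (log2 change 1.08 and 0.34, adjusted p = 0.0069 and 0.4), and Cst3, cystatin C (log2 change 1.23 and 0.44, adjusted p = 0.0033 and 0.3), were called higher, and none of them after screening. Kcnj10, the potassium channel Kir4.1 (log2 change 0.86 and 0.43, adjusted p = 0.031 and 0.16), and Gpm6b (log2 change 0.99 and 0.58, adjusted p = 0.0082 and 0.051) likewise passed in all chosen cells alone. Mlc1 and Gjb6 were read by the screen; in all chosen cells Mlc1 changed by 1.11 (adjusted p = 0.0018) and Gjb6 was not called (0.26, adjusted p = 0.74). In screened cells Mlc1 was at 990.2, 1399 and 1329.6 CPM in Gfap-high cells and 731, 801 and 808 CPM in Gfap-low cells. Gjb6, connexin 30, was at 234, 329 and 275 CPM in Gfap-high cells and 355, 389.7 and 431 CPM in Gfap-low cells there. Apoe, the main lipid carrier of astrocytes, was at 34334, 26622 and 30542 CPM in Gfap-high cells and 32015, 28368 and 30592 CPM in Gfap-low cells and was called in neither set (log2 change 0.49 and -0.15, adjusted p = 0.45 and 0.79). Sparcl1 (log2 change 0.51 and -0.21, adjusted p = 0.35 and 0.62), Hopx (log2 change 0.64 and -0.15, adjusted p = 0.16 and 0.73), Gpm6a (log2 change 0.44 and -0.25, adjusted p = 0.45 and 0.51) and Fabp7 (log2 change -0.44 and 0.04, adjusted p = 0.46 and 0.93) were called in neither.

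Metal and redox genes were higher in part. Mt1, a metallothionein that binds zinc and copper, was at 13906, 19545 and 18769 CPM in Gfap-high cells and 8443, 10298 and 10603 CPM in Gfap-low cells, without overlap (log2 change 1.37 and 0.67, adjusted p = 0.00027 and 0.044). Mt2 (log2 change 1.28 and 0.57, adjusted p = 0.00025 and 0.056) and Mt3 (log2 change 1.17 and 0.55, adjusted p = 0.0019 and 0.093) were called in all chosen cells alone. Fth1, ferritin heavy chain, was at 6132, 5925 and 10796 CPM in Gfap-high cells and 2542, 2316 and 3678 CPM in Gfap-low cells, without overlap (log2 change 0.88 and 1.26, adjusted p = 0.038 and 1.4e-06). Prdx6, a peroxiredoxin, changed by 1.13 in all chosen cells and 0.65 in screened cells (adjusted p = 0.002 and 0.025). Hmox1, heme oxygenase 1, changed sides: -1.77 in all chosen cells and 1.33 in screened cells (adjusted p = 1e-05 and 0.012). Without replicate 1, Mt1, Fth1, Prdx6 and Hmox1 were no longer called in screened cells (log2 change 0.31 to 1.27, adjusted p = 0.17 to 0.92). Without replicate 3, Mt1, Fth1 and Prdx6 were no longer called in screened cells (log2 change 0.56 to 1.17, adjusted p = 0.072 to 0.5). The list counted 6 higher and 1 lower of 32 tested (median log2 change 0.34) in all chosen cells and 8 higher and 1 lower of 30 (median 0.47) in screened cells. Shares over all genes were 2.31% higher and 6.35% lower, and 4.59% and 5.3% after screening.

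The series title speaks of protein homeostasis, so genes that fold, degrade and recycle proteins were counted. The share called over all genes was 2.31% higher and 6.35% lower in all chosen cells, 4.59% and 5.3% in screened cells, and 8.34% and 6.75% in screened cells without replicate 2. Autophagy counted 1 higher and 0 lower of 44 in all chosen cells and 3 higher and 0 lower of 37 in screened cells. The proteasome counted 0 higher and 0 lower of 38 in all chosen cells and 2 higher and 0 lower of 38 in screened cells. Ubiquitin conjugation and removal counted 0 higher and 0 lower of 36 in all chosen cells and 0 higher and 0 lower of 34 in screened cells. The mTOR list counted 0 higher and 0 lower of 39 in all chosen cells and 2 higher and 0 lower of 36 in screened cells. The median log2 changes of these 4 lists lay between -0.08 and 0.23 in screened cells, beside -0.02 over all genes. Lysosomal hydrolases counted 0 higher and 3 lower of 44 in all chosen cells and 1 higher and 1 lower of 37 in screened cells, at medians of -0.05 and 0.05. Lysosomal membrane and proton pump proteins counted 0 higher and 1 lower of 36 in all chosen cells and 2 higher and 2 lower of 30 in screened cells, at medians of 0.12 and 0.08. Cytosolic chaperones counted 2 higher and 5 lower of 38 in all chosen cells and 4 higher and 2 lower of 37 in screened cells, at medians of -0.35 and 0.24. Chaperones of the endoplasmic reticulum counted 0 higher and 2 lower of 29 in all chosen cells and 1 higher and 0 lower of 25 in screened cells, at medians of -0.18 and 0.16. Oxidative phosphorylation had no call among 70 nuclear genes in either set, at medians of 0.25 and 0.10. In screened cells without replicate 2, 7 of 46 autophagy genes, 5 of 38 proteasome genes, 3 of 36 ubiquitin genes, 5 of 34 lysosomal membrane genes, 7 of 38 cytosolic chaperones, 4 of 30 chaperones of the endoplasmic reticulum and 4 of 70 oxidative phosphorylation genes were higher. In that comparison 2 of 40 mTOR genes and 2 of 42 lysosomal hydrolases were higher, and 3 mTOR genes lower.

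Among single genes of these pathways, Sqstm1, the autophagy receptor p62, was at 229, 288 and 177 CPM in Gfap-high cells and 122, 129.9 and 123 CPM in Gfap-low cells, without overlap (log2 change 0.29 and 0.72, adjusted p = 0.7 and 0.006). Ctsb, cathepsin B, was called after screening (log2 change 0.46 and 0.61, adjusted p = 0.42 and 0.027), while Ctsd (log2 change -0.17 and 0.08, adjusted p = 0.85 and 0.86) and Ctsl (log2 change -0.06 and 0.36, adjusted p = 0.96 and 0.27) were not called. The lysosomal membrane proteins Lamp1 (log2 change 0.33 and 0.20, adjusted p = 0.63 and 0.6) and Lamp2 (log2 change 0.37 and 0.32, adjusted p = 0.57 and 0.33), the autophagosome protein gene Map1lc3b (log2 change 0.25 and 0.33, adjusted p = 0.74 and 0.32) and Mtor (log2 change 0.06 and -0.12, adjusted p = 0.97 and 0.89) were called in neither set. Among chaperones Hspa5 (log2 change -0.61 and 0.25, adjusted p = 0.23 and 0.49) and Hspa8 (log2 change -0.45 and 0.08, adjusted p = 0.43 and 0.86) were not called. The small heat shock genes Cryab (log2 change -0.43 and 0.96, adjusted p = 0.49 and 0.00011) and Hspb1 (log2 change 0.09 and 0.66, adjusted p = 0.93 and 0.034) were called after screening. Without replicate 1, Sqstm1, Ctsb, Cryab and Hspb1 were no longer called in screened cells (log2 change 0.54 to 0.94, adjusted p = 0.56 to 0.76). Without replicate 3, Sqstm1, Ctsb, Cryab and Hspb1 were no longer called in screened cells (log2 change 0.19 to 0.87, adjusted p = 0.26 to 0.86). A simulated test at the depth of all chosen cells found 20% of genes changed by 1 on the log2 scale and 96% of those changed by 2. Moderate changes of these genes could thus be missed. The simulation gave every gene the same spread, had no library effect and changed only better-expressed genes. Its rates do not carry over to screened cells, which are fewer.

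**Figure D4:**
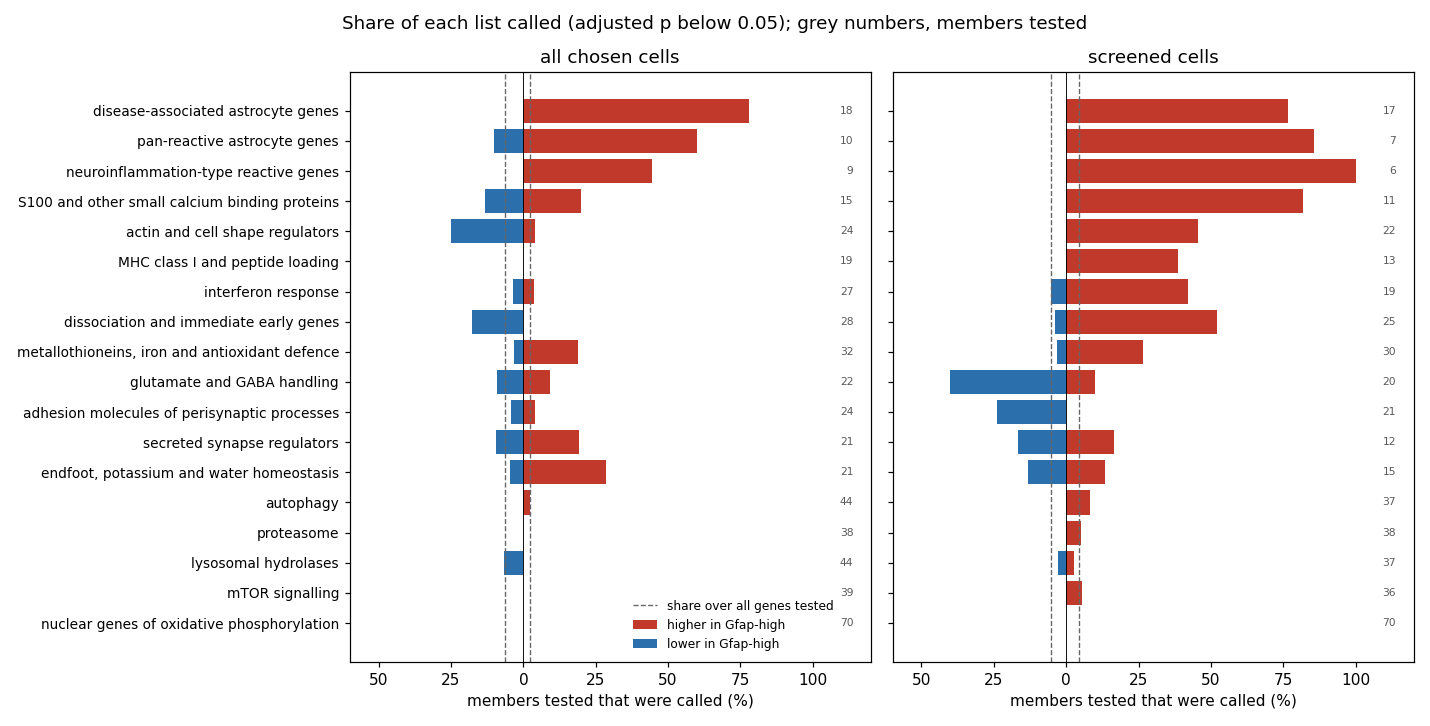
Bars show the share of tested list members called higher (red, to the right) or lower (blue, to the left) in Gfap-high cells, for all chosen cells and for screened cells; dashed lines give the share over all genes tested, and grey numbers the members tested. Reactive lists lie to the right in both panels (14 of 18 disease-associated genes, then 13 of 17), 8 of 20 glutamate and GABA genes lie to the left in screened cells, and proteasome, mTOR and oxidative phosphorylation near 0.

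Ribosomal protein and mitochondrial RNA shifted with the screen. In screened cells, 80 ribosomal protein genes took 4.52, 5.06 and 4.6% of UMIs in Gfap-high and 3.02, 2.85 and 3.47% in Gfap-low cells, and 14 of 77 tested were higher (4.59% over all genes tested). In all chosen cells the shares were 4.78, 4.91 and 4.63% and 4.84, 4.66 and 5.66%, and none was called. The 13 mitochondrially encoded genes took 8.5, 8.92 and 10.5% in screened Gfap-high and 10.5, 12 and 12.4% in screened Gfap-low cells, with 3 of 13 lower (5.3% over all genes tested). The part of these shares in the other results was not tested.

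The lowest log2 changes in all chosen cells belonged to genes of other cell classes. Of the genes called lower, 28 had no UMI in the Gfap-high cells of any library. Against a floor of 3 UMIs over the group, Dcn (decorin, of fibroblasts) was at least 168-fold lower, and Opcml, Gjc3, Nxph1, Neu4 and Sox10, genes high in oligodendrocyte precursors, at least 60.3-, 42.2-, 41-, 37.4- and 31.8-fold lower. The other genes of this kind among the 15 with the lowest log2 change were Dscam, Ugt8a, Snx22, Slc1a1, Plppr5, Slc6a20a, Colec12, Brinp1 and Csmd2, at least 11- to 26.4-fold lower. None of these 15 genes was abundant enough to be tested in screened cells. Apod, a lipocalin of oligodendrocyte-lineage and perivascular cells, went from 1714, 3975 and 99 CPM in all chosen Gfap-low cells to 8.41, 0 and 1.09 CPM in screened Gfap-low cells.

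Haemoglobin genes were lower in both sets, and 1 barcode in each of replicates 1 and 3 carried most Hbb-bs UMIs. The screen did not read erythrocyte markers. Hbb-bs was at 58.4, 494 and 149 CPM in Gfap-high cells and 454, 541 and 6025 CPM in Gfap-low cells in screened cells (log2 change -4.60 and -4.06, adjusted p = 3.6e-27 and 7.3e-40). In replicate 3 a single Gfap-low cell held 95.5% of the 5525 Hbb-bs UMIs, and in replicate 1 a single cell held 80.9% of 1243. Hbb-bs was also found in 27.6% of 2101 microglia-marked barcodes of the same libraries after thinning to 2000 UMIs. Sulf2, an extracellular sulfatase, was at 44.1, 36.9 and 37.6 CPM in Gfap-high cells and 71.4, 146 and 127 CPM in Gfap-low cells over all chosen cells and 20.2, 41.1 and 23.5 CPM in Gfap-high cells and 2.19, 0 and 1.09 CPM in Gfap-low cells after screening (41 against 7 UMIs), and changed sides (log2 change -1.20 and 3.53, adjusted p = 0.002 and 4e-06).

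Levels along the range of Gfap are given as a description, since the bands hold the cells already compared. Screened cells were split into bands of Gfap per 10000 UMIs: below 10, 10 to below 40, 40 to below 80, and 80 to below 160. In replicates 1 and 3 the last band held 5 and 24 screened cells, and replicate 2 had none above 80; a single cell of replicate 3 exceeded 160. Serpina3n went through 6.95, 59, 344 and 719.5 CPM in replicate 1 and 26.2, 108, 365 and 788 CPM in replicate 3. Igfbp5 went through 170.0, 399, 1139 and 1704 CPM and 145, 349, 759 and 1849.6 CPM, and Vim through 119, 380.1, 759 and 1893 and 389, 651, 1392 and 1750.0 CPM. Each of these stood higher in each next band of both libraries, and other genes levelled off or dropped in the last band. Of 41 named genes called higher in both sets, 33 stood higher in each of the first 3 bands of both libraries, and 15 did so over all 4. Cebpd went through 55.9, 122, 529.9 and 227 CPM in replicate 1 and 77.4, 168, 349 and 293 CPM in replicate 3, and C4b through 443, 759, 1151 and 1136 and 525, 924, 1239 and 1156 CPM.

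Of 17 named genes called lower in both sets, 14 stood lower in each of the first 3 bands of both libraries, and 7 over all 4. Gria2 went through 1173, 597, 227 and 189 CPM in replicate 1 and 678, 301, 211 and 154 CPM in replicate 3, with intermediate levels already in the band from 10 to below 40. Hes5 went through 545, 364, 181 and 18.9 and 291, 219, 91.4 and 81.5 CPM, and Mertk through 369, 232, 127 and 56.8 and 306, 217, 111 and 99.6 CPM. Slco1c1 levelled off, through 331, 212, 89.2 and 94.7 and 299.9, 154, 94.5 and 99.6 CPM. Igfbp2 stood higher again in the last band of replicate 3, through 269.8, 187, 12.7 and 0 and 336, 197, 65.7 and 269 CPM. That last value was 89 UMIs in 24 cells. Of the 106 screened Gfap-high cells of replicate 3, 22 held Igfbp2 UMIs, and 5 cells held 66.7% of them, so few cells may set it. Thbs4 was highest in the band from 40 to below 80 (47.2, 87.6, 275 and 227 and 37.1, 146, 375 and 223 CPM). Apoe stayed between 30194 and 37529 CPM over all bands of both libraries. Against the cells between the limits, 86 of 7974 genes tested were higher in screened Gfap-high cells and 51 lower.

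**Figure D5:**
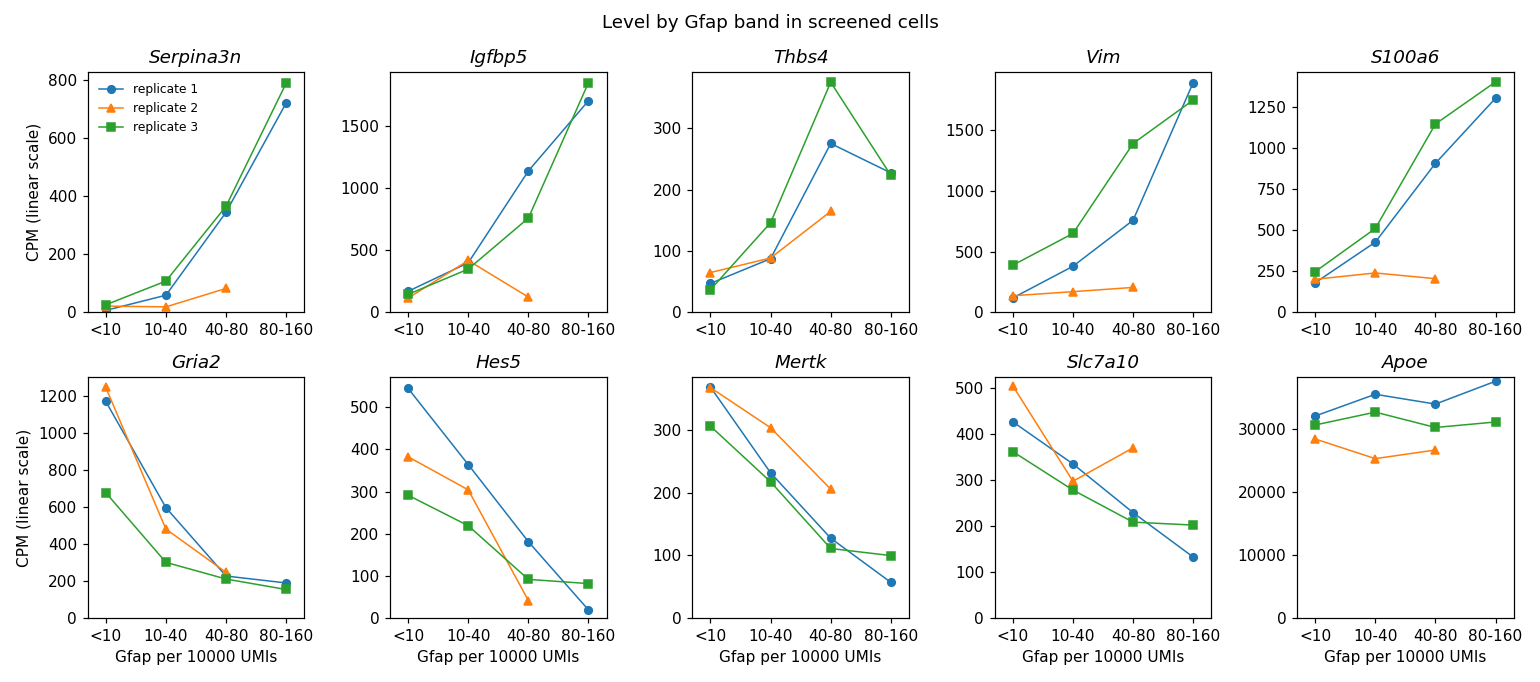
CPM in screened cells (linear scale from 0) against the band of Gfap per 10000 UMIs, for replicates 1 (circles), 2 (triangles) and 3 (squares). In replicates 1 and 3 Serpina3n, Igfbp5, Vim and S100a6 stood higher in each next band and Gria2, Hes5, Mertk and Slc7a10 lower, while Apoe stayed near its level; replicate 2 has no point in the last band, and its 4 cells from 40 to below 80 lie off the course for Igfbp5.

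At equal depth Serpina3n and Igfbp5 were detected in a larger share of Gfap-high cells and Gria2 in a smaller one. The shares pool cells of 3 libraries, and their intervals cover counting error only. After thinning to 2000 UMIs, Serpina3n was detected in 42% of 162 (95% interval 34.3 to 50%) screened Gfap-high cells and in 2.94% of 612 (95% interval 1.75 to 4.61%) Gfap-low cells (70.4% and 5.07% unthinned). By library the share was 36.5%, 0% and 46.2% in Gfap-high and 2.34%, 0% and 5.65% in Gfap-low cells; in replicate 2 it was 0 of 4 and 0 of 18. In microglia-marked barcodes, thinned alike from a median of 8144 UMIs, the share was 1.19%. Igfbp5 was detected in 69.8% of 162 (95% interval 62.1 to 76.7%) and 23% of 612 (95% interval 19.8 to 26.6%), with 1.57% in microglia (89.5% and 43.8% unthinned). Gria2 was detected in 27.8% of 162 (95% interval 21 to 35.3%) and 75.5% of 612 (95% interval 71.9 to 78.8%), with 2.14% in microglia (58% and 89.1% unthinned). The unthinned median depths of the screened groups were 9758.5 and 5166 UMIs.

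The genes that chose the cells are given as a description. In screened cells Aqp4, the water channel of endfeet, was at 1464, 453 and 1372 CPM in Gfap-high and 803, 476 and 677 CPM in Gfap-low cells. Gja1, connexin 43, was at 1143, 946 and 857 and 1534, 1754 and 1098 CPM. The glutamate transporter gene Slc1a2 was at 12468, 9793 and 10665 and 11265, 9641 and 9562 CPM, and Aldoc, an aldolase, at 6581, 7983 and 6883 and 5569, 6091 and 6543 CPM. The rule asked for such genes in every cell, so their presence in both groups is no separate check of the label.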

How the data were processed

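Hippocampal cells from 3 libraries were counted by 10x Genomics Chromium 3′ v3.1 chemistry, per the labels' protocols. The authors deposited 1 table of raw UMI counts per gene and barcode for each library; the submitters' processing notes name Cell Ranger and mm10, and no version of either is given in the sources used here. Cells were chosen by the rule given in the text, with Gfap kept out of totals and tests. Doublets were called with Scrublet in scanpy 1.11.5, which marked 178, 8 and 148 barcodes (1 Gfap-high and 9 Gfap-low cells), and were kept except in 1 alternative. UMIs were summed per library and group, giving 6 profiles. They were tested in R 4.3.3 with edgeR 4.0.16 (filterByExpr, TMM, quasi-likelihood test, library as a block because both groups of a replicate come from the same cell suspension) and Benjamini-Hochberg adjustment over all genes tested. DESeq2 1.42.0 and limma 3.58.1 served as alternatives. Tested on simulated data with 200 changed genes among 8976, the fit recovered 20% of 100 genes changed by 1 and 96% of 100 changed by 2 on the log2 scale. Those data had the depth of all chosen cells, the same spread for every gene and no library effect, and changed only better-expressed genes. The rule named up to 15 genes per direction, by log2 change among called genes with 1 sign in every library and 20 CPM or more in a group (predicted gene models and pseudogenes left out), up to 4 called genes per list, and a fixed list. Other genes were added after their values were seen. The members and gene lists were chosen with earlier results of these data known.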

Additional observations from a re-analysis of the deposited data

How the results depend on the processing

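The screened cells, and every alternative run on them, were chosen after seeing the data. Counts of called genes depended on the cells and the tool, and the cause was not tested. Over all chosen cells, the 219 higher and 602 lower genes became 54 and 241 with DESeq2, 77 and 125 with cells thinned to 2000 UMIs, 47 and 270 against the cells between the limits, 42 and 108 with each cell counted equally (limma), and 329 and 380 in screened cells. With none of the 5 genes of other classes allowed, 339 genes were lower. Without the replicate block, 126 genes were higher in all chosen cells, and 163 higher and 197 lower in screened cells. In screened cells DESeq2 called 41 higher and 45 lower, thinning 137 and 170, and the cells between the limits as reference 86 and 51. With 1 library left out, 25 to 181 genes were higher and 108 to 467 lower in all chosen cells, and 19 to 756 higher and 4 to 612 lower in screened cells; the lone pairs left then share 1 estimate of spread.

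In screened cells the sign turned for Cd9 (1.71), Tuba1a (1.48), Tmsb4x (0.84), H2-D1 (1.22), Cebpb (2.41), Cryab (0.96), Socs3 (2.51), Junb (1.58), Fosb (1.34), Nr4a1 (1.30), Atf3 (1.57), Ptgds (1.02), Sulf2 (3.53), Hmox1 (1.33), Slc6a11 (-0.72), Grm3 (-0.75), Agt (-0.74), Gjb6 (-0.63) and S1pr1 (-0.82). The screen read Gjb6, so the turn of Gjb6 is no separate result, though it is counted among the sign changes below. With none of the 5 genes allowed, Cebpb (1.06), Atf3 (0.41) and Hmox1 (1.11) turned too. Counting each cell equally turned Serping1 (-0.18) and Nes (0.28). Against the cells between the limits, Sulf2 (0.47), Hmox1 (0.74) and, in screened cells, Ptgds (-0.22) turned. With 1 library left out, screened Socs3 lay at -0.23 to 2.54, Fosb at -0.80 to 1.80, Nr4a1 at -0.51 to 1.73 and Atf3 at -0.18 to 2.14, the negative values without replicate 1. Of 2071 comparisons of named genes over all chosen cells, 1589 kept their call or its absence and 26 changed sign; in screened cells 571 of 838 and 5. The comparison of Gfap at 80 or more with Gfap below 5 used replicates 1 and 3, since replicate 2 had no such cell. Replicate 2 held 5 Gfap-high cells.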
